A study of Mus musculus with 18 samples.

Results

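The JAK-STAT genes followed across all 6 groups of libraries were Stat2, Stat3, Stat4, Stat5a, Stat5b, Stat6, Jak2, Socs1 and Socs3. They are the rows of the deposited table whose Ensembl identifier belongs to 1 of these symbols, 9 of 54446 genes. The rule uses no measured value, but the genes were chosen with earlier results of these data known. All 9 were detected, and the minimum mean normalized count of 10 was passed by 9 in the Type 1 experiment and by 8 in the IL-4 one, where Stat4 was below it.

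Cytokine receptors lack kinase activity of their own and carry Janus kinases, such as JAK2, on their cytoplasmic tails. When a cytokine binds, the kinases phosphorylate the receptor and the STAT proteins that dock there, and the STATs pair, enter the nucleus and bind DNA. STAT6 carries the IL-4 signal, JAK2 is used by the receptors for IFN-γ and for IL-5, the main survival cytokine of eosinophils, and SOCS1 and SOCS3 are induced by STATs and block the kinases in a feedback loop.

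Eosinophils were taken from the peritoneal cavity of NJ.1638 Il5Tg mice on the C57BL/6 background, so every group, controls included, carried the Il5 transgene. Each eosinophil met 5 apoptotic cells (ACs) over an 18 h culture, the ACs being wild-type thymocytes treated with dexamethasone, and the eosinophils were repurified with anti-Siglec-F beads. The Type 1 experiment held cultures given ACs and no stimulus, or ACs with E. coli, with IFN-γ, or with both (IFN-γ + E. coli + ACs), and the IL-4 experiment held cultures given ACs without or with IL-4, in 3 libraries for each of the 6 groups. The paper describes the combined stimulus as IFN-γ followed by E. coli. Every group held ACs, and eosinophils without ACs are not analysed here. Replicates are described in the study as biological, with a different mouse behind each lane of its plots of ACs against non-activated eosinophils. The sample labels do not name the mouse or culture behind a library.

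Between 779421 and 7782072 reads were assigned to genes in a library (median 4461121). The shallow libraries were replicate 3 of IL-4 + ACs (849705 reads) and replicate 3 of the ACs of the IL-4 experiment (779421 reads), in which 3 reads stood for normalized counts of 15.4 and 16.1. The eosinophil surface markers Siglecf and Ccr3 were detected in every group, with group means of 1630 to 3237 and 2974 to 4498. Siglecf was lower than with ACs in the IFN-γ cultures (log2 -0.99 ± 0.10, adjusted p = 5.5e-07 in limma) and in those given both stimuli (-0.76 ± 0.10), and the summed count of the 8 eosinophil markers was 4856 to 5678 with IFN-γ + ACs, against 7598 to 7997 with ACs, 8648 to 9832 with E. coli and 6942 to 8312 with both. By contrast, Epx, which encodes eosinophil peroxidase, averaged at most 14.1. All 11 macrophage markers were detected in every group, and their summed normalized count was 18394 to 23577 with ACs and 30669 to 40296 once IFN-γ was added. It was 10124 to 12455 in the E. coli cultures and 12636 to 13794 in those given both stimuli. The same sum was 27943 to 41127 with ACs and 22133 to 36946 with IL-4 + ACs in the IL-4 experiment. The 14 thymocyte markers summed to 91.1 to 314.0 in any library. The highest group means on that list were 117 for Satb1 (ACs, Type 1 experiment), 60.2 for Tcf7 and 46.0 for Lck (both E. coli + ACs). Cd4 reached 39.5 (ACs, Type 1 experiment) and Cd3d 35.0 (ACs, IL-4 experiment), while Rag1, Rag2, Ptcra and Dntt averaged at most 2.49 in any group. In such bulk samples, fewer cells of a type and less RNA per cell cannot be told apart.

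**Figure D1:**
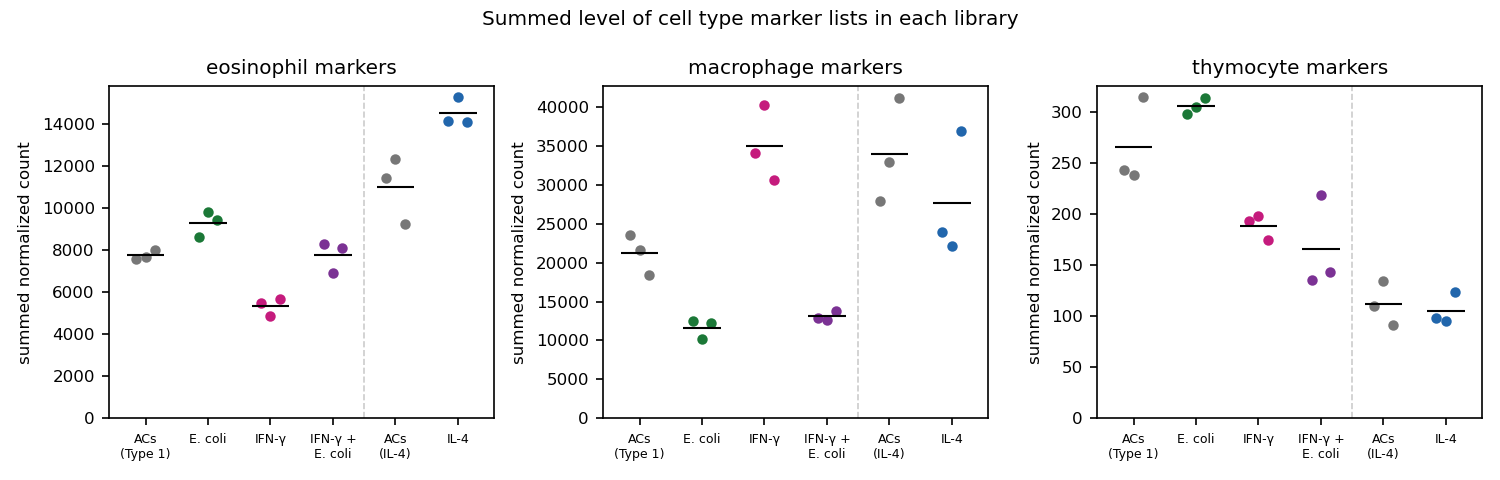
Summed normalized counts of the eosinophil, macrophage and thymocyte marker lists, 1 point per library, with a line at each group mean. The macrophage sum lies at 30669 to 40296 with IFN-γ + ACs and at 10124 to 12455 with E. coli + ACs, and the thymocyte sum does not exceed 314.0.

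On GRCm38, with the annotation of GENCODE M21, Stat5b (chr11:100780731-100850724, minus strand), Stat5a (chr11:100859351-100885169, plus strand) and Stat3 (chr11:100885098-100939540, minus strand) lie side by side on chromosome 11. Stat5a and Stat3 run towards each other and share 72 bases at their 3′ ends, which is the end that the CEL-Seq2 libraries count. Whether counting used the strand is not given in the sources used here, so reads within those bases cannot be assigned with certainty. Stat6 (chr10:127642986-127660957) and Stat2 (chr10:128270559-128292849) lie 609601 bases apart on chromosome 10. Socs3 is on chromosome 11 (chr11:117966079-117970047), Socs1 on chromosome 16 (chr16:10782240-10785536), Stat4 on chromosome 1 (chr1:51987148-52107189) and Jak2 on chromosome 19 (chr19:29251828-29313080).

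The 250 bases before the RefSeq start site of Socs1, Stat2 and Stat3 are printed 5′ to 3′ on the gene's strand, because these 3 genes passed the threshold with IFN-γ + ACs. Capitals mark matches to the letters searched, and the sequences come from RefSeq on GRCm38.p6.
Socs1, chr16:10785537-10785786, minus strand: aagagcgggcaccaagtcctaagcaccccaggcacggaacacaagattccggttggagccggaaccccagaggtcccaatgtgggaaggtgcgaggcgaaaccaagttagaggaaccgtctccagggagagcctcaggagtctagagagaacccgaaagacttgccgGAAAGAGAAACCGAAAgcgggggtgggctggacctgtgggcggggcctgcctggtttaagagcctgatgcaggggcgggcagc
Stat2, chr10:128270248-128270497, plus strand: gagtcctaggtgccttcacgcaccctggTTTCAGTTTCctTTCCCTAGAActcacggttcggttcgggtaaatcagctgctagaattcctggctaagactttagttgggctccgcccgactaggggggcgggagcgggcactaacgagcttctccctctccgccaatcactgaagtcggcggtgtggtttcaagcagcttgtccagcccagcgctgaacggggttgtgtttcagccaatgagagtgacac
Stat3, chr11:100939541-100939790, minus strand: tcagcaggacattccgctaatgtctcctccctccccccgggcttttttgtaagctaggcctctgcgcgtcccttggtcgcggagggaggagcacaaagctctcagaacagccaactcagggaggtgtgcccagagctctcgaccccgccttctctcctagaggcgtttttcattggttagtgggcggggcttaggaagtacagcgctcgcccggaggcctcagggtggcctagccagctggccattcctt

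The following 3 forms were searched on both strands of windows of 300 bases, from 250 before to 50 after the start. They were the gamma-activated sequence bound by STAT pairs (GAS, TTCNNNGAA), the wider form that STAT6 prefers (TTCNNNNGAA) and the core of the interferon-stimulated response element (ISRE, GAAANNGAAA), to which the complex of STAT2 and IRF9 binds. All 9 genes have a RefSeq start in the table, giving 12 windows to search. Socs1 held overlapping ISRE cores whose first bases lay at -83 and -77 from the start, GAAAGAGAAA and GAAACCGAAA. Stat2 held an ISRE core on the other strand, read here as TTTCAGTTTC at -222, and the wider form TTCCCTAGAA at -210. Socs3 held a GAS at -154, TTCTTAGAA, in a window that lies inside the longer GENCODE gene, and 1 of the Stat4 windows held an ISRE core at -97. None of the 3 forms was found in the windows of Stat3, Stat5a, Stat5b, Stat6 and Jak2. Of all 32851 RefSeq windows of the same length, 8.3% held the GAS letters, 6.95% the wider form and 3.44% the ISRE core. A match describes letters and not a bound site.

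With IFN-γ + ACs, 3 of the 9 genes passed the threshold against ACs, and all 3 were higher, namely Stat2, Stat3 and Socs1. The threshold was a Benjamini-Hochberg adjusted p under 0.05 in limma and a change of at least 1.5-fold, and 21.4% of all 10166 genes tested passed it in that comparison, 11.4% higher and 9.96% lower. When E. coli was given as well, 5 of 9 passed, all higher, namely Stat2, Stat3, Stat5b, Socs1 and Socs3, where 31.9% of all genes passed (14.7% higher and 17.2% lower). These were 1494 higher and 1746 lower genes, or 1155 and 2200 after rescaling to a common upper quartile, which moved the median log2 value of all genes from -0.05 to -0.18. With E. coli + ACs, Jak2 was the 1 gene of the 9 past the threshold and it was lower, where 10.3% of all genes passed, 5.05% higher and 5.25% lower. With IL-4 + ACs, 0 of the 8 genes tested passed in limma, edgeR or DESeq2, where 1.09% of 10669 genes passed in limma, 0.74% higher and 0.347% lower. In that comparison 1 of the 8 had an unadjusted p under 0.05, and 1030 genes did among all tested. These 3 Type 1 comparisons share the ACs libraries.

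The median log2 fold change of the 9 genes was 0.21 with E. coli, 0.24 with IFN-γ and 0.72 with both stimuli, beside -0.004, 0.00 and -0.05 over all genes tested. With IL-4 + ACs the median of 8 genes was -0.16, beside -0.01 over all. The range over the 3 E. coli + ACs libraries lay above that of ACs for 3 genes and below it for 1, where 38.3% of all genes tested were apart, 19.9% higher and 18.4% lower. With IFN-γ + ACs 4 genes lay above and 1 below, beside 42.9% of all genes, 22.6% higher and 20.3% lower. With both stimuli 5 lay above, beside 48.8% of all genes and 23.9% higher, and with IL-4 + ACs 3 lay below, beside 17.3% and 8.84% lower.

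**Figure D2:**
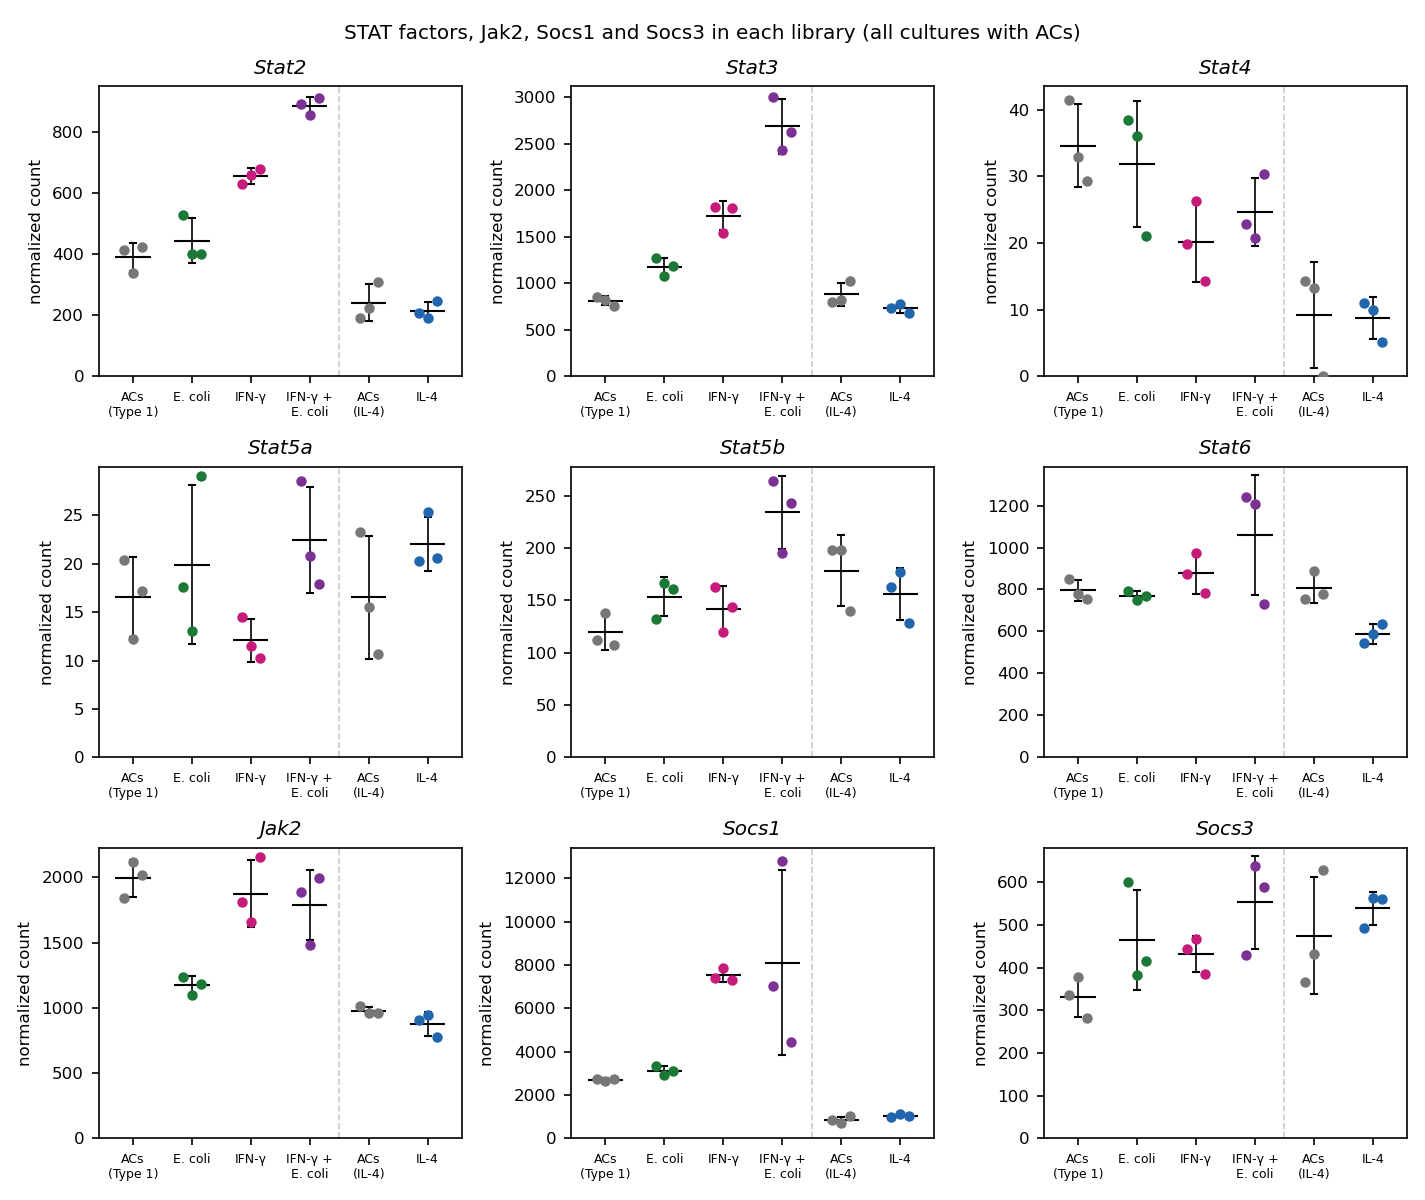
Normalized count (linear axis from 0) of each gene in each library, with the group mean as a line, the SD (n = 3) as a bar and the Type 1 and IL-4 experiments parted by a dashed line. Stat2 and Stat3 climb from ACs to IFN-γ + E. coli + ACs, Jak2 is low with E. coli + ACs, and the Socs1 points of IFN-γ + E. coli + ACs spread from 4458 to 12787.

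STAT2 is the partner of IRF9 in the complex that answers type I interferon. Its normalized count was 413.9, 338.8 and 423.3 in the 3 ACs libraries of the Type 1 experiment and 630.5, 659.1 and 681.3 with IFN-γ + ACs. With IFN-γ + E. coli + ACs it was 893.8, 857.5 and 912.0. With E. coli + ACs it was 530.8, 401.4 and 402.0. Each library with IFN-γ lay above every library without it, and the libraries with both stimuli lay above those with IFN-γ + ACs, while E. coli + ACs overlapped with ACs. The log2 fold change over ACs was 0.75 ± 0.13 (SE) with IFN-γ (adjusted p = 2.7e-04 in limma), 1.18 ± 0.13 with both (adjusted p = 9.1e-07) and 0.18 ± 0.13 with E. coli (adjusted p = 0.45). Stat2 in the IL-4 experiment was 191.0, 224.2 and 311.0 with ACs and 206.2, 191.3 and 246.7 with IL-4 + ACs. These ranges overlapped (log2 fold change -0.15 ± 0.21, adjusted p = 0.84).

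STAT3 is the main factor downstream of IL-6 and IL-10. Its normalized count was 855.5, 823.0 and 760.9 with ACs, and 1269.1, 1081.6 and 1185.8 with E. coli + ACs. It was 1821.6, 1545.1 and 1814.0 with IFN-γ + ACs and 3006.3, 2432.1 and 2622.8 when E. coli was added as well. No group overlapped with another, and the order ran from ACs through E. coli and IFN-γ to both stimuli. The change over ACs was 2.12-fold with IFN-γ (log2 1.08 ± 0.11, adjusted p = 7.2e-07 in limma) and 3.29-fold with both (log2 1.72 ± 0.11, adjusted p = 8.9e-10). With E. coli it was 1.45-fold (log2 0.53 ± 0.11, adjusted p = 0.0035 in limma), which is short of the 1.5-fold limit. Without replicate 2 of E. coli + ACs the log2 value was 0.59 and Stat3 passed. With IL-4 + ACs Stat3 was 735.2, 780.9 and 683.6, below the ACs values of 801.6, 816.7 and 1024.0, and the test gave a log2 fold change of -0.26 ± 0.14 (adjusted p = 0.61).

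STAT5A and STAT5B are close relatives that serve IL-5, IL-3 and GM-CSF. Stat5b was 112.2, 138.0 and 107.6 with ACs, 132.3, 166.8 and 161.0 with E. coli + ACs and 162.2, 119.2 and 143.6 with IFN-γ + ACs. With IFN-γ + E. coli + ACs it was 263.7, 195.4 and 242.8. The libraries with both stimuli lay above all others of the experiment, which overlapped among themselves. The log2 fold change over ACs was 0.96 ± 0.18 with both (adjusted p = 2.9e-04 in limma), 0.36 ± 0.18 with E. coli (adjusted p = 0.21) and 0.24 ± 0.18 with IFN-γ (adjusted p = 0.34). Stat5b in the IL-4 experiment was 197.8, 197.7 and 139.4 with ACs and 162.2, 177.0 and 128.5 with IL-4 + ACs, with overlap (log2 fold change -0.19 ± 0.21, adjusted p = 0.80). Stat5a was low in every library, from 10.3 to 29.0, and no comparison of it with ACs passed, with log2 fold changes from -0.41 to 0.45 and standard errors of 0.40 (Type 1) and 0.46 (IL-4). In the shallow libraries of the IL-4 experiment, Stat5a rested on 2 reads with ACs (10.7) and 4 reads with IL-4 + ACs (20.6).

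STAT6 is the factor that IL-4 and IL-13 activate. In the IL-4 experiment its normalized count was 756.5, 889.1 and 777.4 with ACs and 543.4, 586.5 and 637.4 with IL-4 + ACs. Every library with IL-4 lay below every library with ACs alone. The log2 fold change was -0.45 ± 0.14 with a 95% interval from -0.76 to -0.15 and an unadjusted p of 0.0075, but the limma p adjusted over all genes was 0.28, so Stat6 did not pass. Over the alternatives, leave-outs included, the adjusted p ran from 0.0033 to 0.69 and the log2 value from -0.54 to -0.38, short of 1.5-fold in each. In the Type 1 experiment Stat6 was 851.4, 780.8 and 756.0 with ACs, 794.5, 748.0 and 769.7 with E. coli + ACs and 874.5, 973.1 and 781.8 with IFN-γ + ACs. With IFN-γ + E. coli + ACs it was 1240.2, 1205.7 and 729.9, of which the third value lay below every ACs library. The log2 fold change was 0.37 ± 0.16 (adjusted p = 0.073 in limma), and without replicate 3 it was 0.62 (adjusted p = 5.0e-04) and passed.

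STAT4 relays the IL-12 signal. Its normalized count was 29.4 to 41.5 with ACs and 21.1 to 38.5 with E. coli + ACs, and it was 14.4 to 26.4 with IFN-γ + ACs and 20.8 to 30.4 with both. The IFN-γ + ACs libraries lay below the ACs libraries, with a log2 fold change of -0.77 ± 0.34 that did not pass (adjusted p = 0.099 in limma). In the IL-4 experiment it was 14.3, 13.2 and 0 with ACs and 11.0, 10.0 and 5.14 with IL-4 + ACs, and the 0 was read in the shallowest library, where 3 reads stand for 16.1. It was not tested there.

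JAK2 is the kinase bound to the receptors for IFN-γ and IL-5. Jak2 was 1842.7, 2117.2 and 2016.9 with ACs, and 1235.6, 1098.8 and 1184.0 with E. coli + ACs. It was 1813.7, 1656.3 and 2156.8 with IFN-γ + ACs and 1891.6, 1480.5 and 1992.3 when both stimuli were given. Every E. coli + ACs library lay below every other library of the experiment, and the other groups overlapped. With E. coli the fold change was 0.589 (log2 -0.76 ± 0.13, adjusted p = 3.5e-04 in limma), and over all 23 alternatives and leave-outs it stayed between -0.82 and -0.72 and past the threshold. The log2 fold change over ACs was -0.09 ± 0.13 with IFN-γ (95% interval -0.36 to 0.17) and -0.17 ± 0.13 with both (-0.43 to 0.10). The macrophage marker sum was also lower with E. coli + ACs than with ACs (10124 to 12455 against 18394 to 23577), and it was 12636 to 13794 with IFN-γ + E. coli + ACs, where Jak2 did not pass. The largest terms of that sum with ACs were C1qc (8319), Lyz2 (5010) and C1qb (2580), and Adgre1 went the other way with E. coli + ACs (2366 against 1806). The part of the marker sum in the Jak2 result was not tested. In the IL-4 experiment Jak2 was 1012.1, 963.0 and 959.7 with ACs and 909.0, 943.7 and 776.1 with IL-4 + ACs. These ranges lay apart, but the log2 fold change of -0.16 ± 0.13 did not pass (adjusted p = 0.72 in limma).

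SOCS1 binds Janus kinases directly and is the chief brake on IFN-γ signalling. Socs1 was 2751.8, 2622.1 and 2720.7 with ACs, 3337.7, 2917.0 and 3109.5 with E. coli + ACs and 7376.0, 7868.7 and 7295.2 with IFN-γ + ACs. With IFN-γ + E. coli + ACs it was 7020.5, 12787.1 and 4457.8. All 6 libraries with IFN-γ lay above all 6 without it, and the group with both stimuli spread 52.7% of its mean (CV), against 4.13% with IFN-γ + ACs. The change over ACs was 2.78-fold with IFN-γ (log2 1.48 ± 0.22, adjusted p = 5.7e-05 in limma) and 2.73-fold with both (log2 1.45 ± 0.22, adjusted p = 4.4e-05). Leaving out 1 library at a time moved the latter between 1.05 and 1.81. With E. coli the log2 fold change was 0.21 ± 0.22 (adjusted p = 0.62), although the ranges lay apart. That standard error draws on the spread of all Type 1 groups, the wide group with both stimuli included. The CV was 2.51% with ACs and 6.75% with E. coli + ACs. Socs1 in the IL-4 experiment was 826.4, 694.4 and 1013.3 with ACs and 993.6, 1133.4 and 1012.6 with IL-4 + ACs. These ranges overlapped (log2 fold change 0.32 ± 0.16, adjusted p = 0.55 in limma), and the ACs value of 1013.3 came from the shallow replicate 3. Over the limma, edgeR and DESeq2 alternatives, leave-outs included, the adjusted p ran from 0.016 to 0.81. The log2 value ran from 0.19 to 0.49, short of 1.5-fold in each.

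SOCS3 binds the gp130 receptor chain and restrains STAT3. Socs3 was 336.7, 378.2 and 281.4 with ACs, and 599.4, 381.8 and 414.3 with E. coli + ACs. It was 443.2, 467.6 and 385.8 with IFN-γ + ACs and 430.5, 638.9 and 587.8 when both were given. Each stimulated group lay above the ACs libraries, and the stimulated groups overlapped with each other. The change passed with both stimuli (log2 0.72 ± 0.18, adjusted p = 0.0034 in limma) and not with E. coli (log2 0.47 ± 0.18, adjusted p = 0.095) or IFN-γ (log2 0.39 ± 0.18, adjusted p = 0.12). After rescaling to a common upper quartile the value with both was 0.58 and missed the 1.5-fold limit. Socs3 in the IL-4 experiment was 365.4, 432.1 and 627.3 with ACs and 493.6, 562.2 and 560.2 with IL-4 + ACs. The ranges overlapped (log2 fold change 0.22 ± 0.20, adjusted p = 0.76 in limma), and the ACs value of 627.3 came from the shallow replicate 3. Over the same alternatives as for Socs1, the adjusted p ran from 0.022 to 0.98. The log2 value ran from 0.05 to 0.44, short of 1.5-fold in each.

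The macrophage marker sum was above that of ACs with IFN-γ + ACs and below it in the cultures given both stimuli. Stat2, Stat3 and Socs1 were higher than with ACs in each of these groups. The listed markers did not move together. Of the 11, 5 passed as higher with IFN-γ + ACs (C1qb, Timd4, Marco, Mertk and Lyz2) and 2 as lower, Vsig4 (-0.68 ± 0.24) and Mrc1 (-2.82 ± 0.55). With both stimuli 5 were lower (C1qa, C1qb, C1qc, Vsig4 and Mrc1) and 3 higher, Adgre1 (0.72 ± 0.10), Marco (0.84 ± 0.16) and Mertk (0.60 ± 0.18). With E. coli + ACs 6 were lower and 0 higher in limma, and Adgre1 had 0.39 ± 0.10 (adjusted p = 0.012), short of 1.5-fold. The log2 fold changes with IFN-γ and with both stimuli were 0.75 and 1.18 for Stat2, 1.08 and 1.72 for Stat3, and 1.48 and 1.45 for Socs1. The eosinophil marker sum was lowest with IFN-γ + ACs, where Siglecf, Il5ra and Ear6 were the 3 of 8 that passed, all lower. Epx and Ear1, which are among the 8, were not tested in that comparison. The part of either marker list in these values was not tested.

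**Figure D3:**
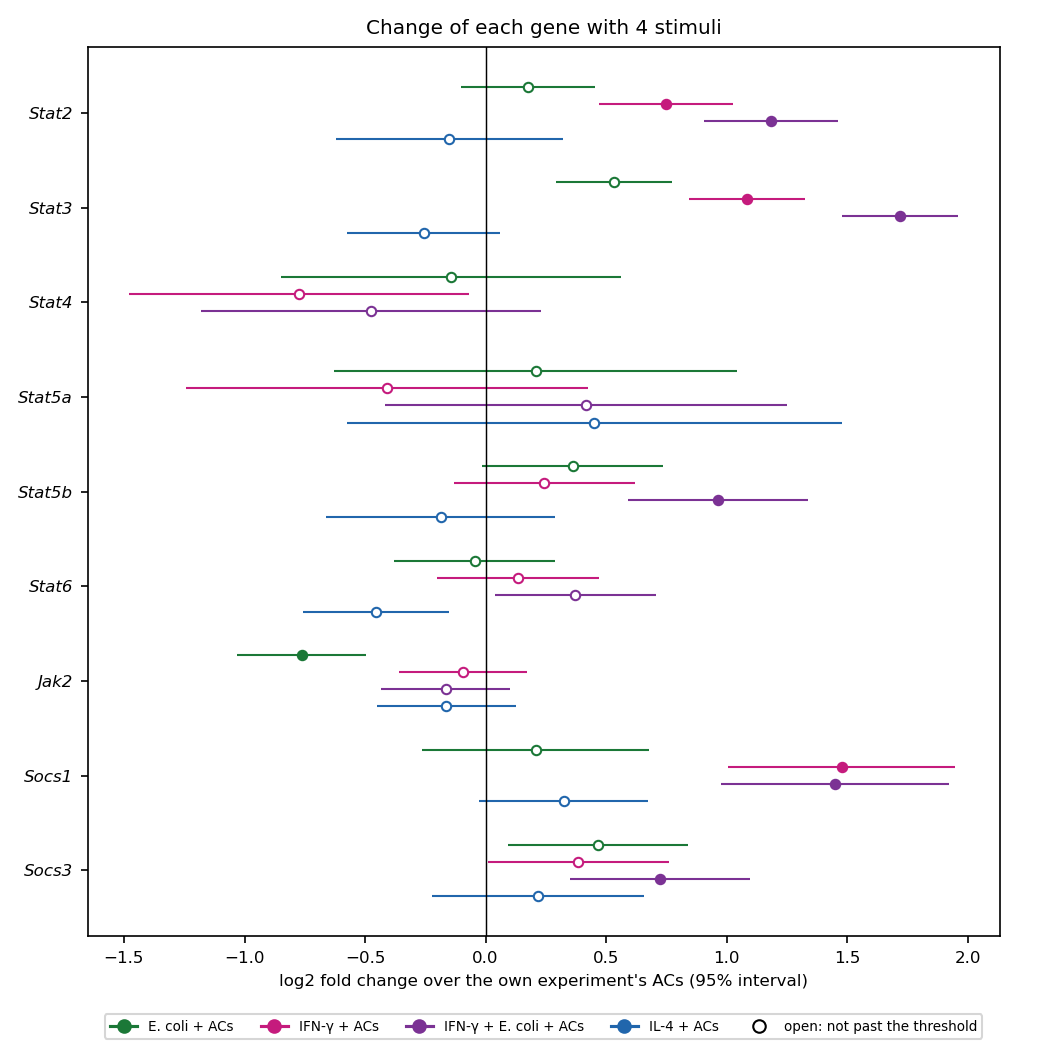
Log2 fold change of each gene over the ACs libraries of its own experiment, with 95% intervals from limma, on log2 of the normalized count plus 1. Filled points passed the threshold, and Stat4 with IL-4 + ACs was not tested. The filled points are Stat2, Stat3 and Socs1 with IFN-γ, the same genes with Stat5b and Socs3 with both stimuli, and Jak2 with E. coli, the only filled point below 0.

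In the 4 Type 1 groups, the order of mean levels ran from ACs through E. coli and IFN-γ to both stimuli for Stat2 and Stat3. For Stat3 each neighbour in that order lay apart, although the steps from ACs to E. coli and from E. coli to IFN-γ were short of 1.5-fold (log2 0.53 and 0.55). For Stat2 the neighbours ACs and E. coli overlapped, and the groups with IFN-γ lay apart. For Socs1 ACs and E. coli were the lower groups, and IFN-γ and both stimuli were not ordered, since 2 of the 3 libraries with both lay below every IFN-γ + ACs library and 1 above them (log2 difference -0.03 ± 0.22). For Jak2 the order was E. coli, both, IFN-γ and ACs, with a mean of 1173 ± 69.1 (SD, n = 3) for E. coli and means of 1788 ± 271, 1876 ± 256 and 1992 ± 139 for the overlapping groups. For Stat5b and Socs3 the mean was highest with both stimuli and lowest with ACs.

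With ACs alone, Jak2 averaged 1992 ± 139 in the Type 1 libraries and 978.3 ± 29.4 in the IL-4 libraries (SD, n = 3), and mean Socs1 was 2698 ± 67.7 and 844.7 ± 160. Stat3 means were 813.1 ± 48.1 and 880.8 ± 124. These are values side by side, since experiment and group cannot be told apart between them.

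When E. coli was added to IFN-γ + ACs, Stat3 and Stat5b passed the threshold, 2 of 9 and both higher, where 14.6% of all genes passed and 5.96% were higher. The log2 difference was 0.64 ± 0.11 for Stat3 (adjusted p = 6.3e-04 in limma) and 0.72 ± 0.18 for Stat5b (adjusted p = 0.0075). Stat3 fell short of 1.5-fold without replicate 2 of IFN-γ + ACs (0.56) or replicate 1 of IFN-γ + E. coli + ACs (0.55). Stat2 differed by 0.43 ± 0.13 (adjusted p = 0.026), short of 1.5-fold. Ranges lay apart for 4 of 9 genes, all higher, beside 29.6% of all genes and 14.2% higher, and these were Stat2, Stat3, Stat5a and Stat5b.

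With both stimuli against E. coli + ACs, 5 of 9 genes passed and all were higher, where 19.4% of all genes passed and 9.79% were higher. The log2 difference was 1.01 ± 0.13 for Stat2 (adjusted p = 1.6e-05 in limma), 1.19 ± 0.11 for Stat3 (adjusted p = 3.9e-07) and 1.24 ± 0.22 for Socs1 (adjusted p = 4.9e-04). It was 0.60 for both Jak2 (SE 0.13, adjusted p = 0.0020) and Stat5b (SE 0.18, adjusted p = 0.019), just past 1.5-fold. These last calls were lost after rescaling to a common upper quartile, where both values were near 0.49, 0.490 for Jak2 and 0.495 for Stat5b. Jak2 also missed without replicate 2 of E. coli + ACs (0.55) or without replicate 1 (0.55) or 3 (0.51) of the group with both, and Stat5b without replicate 1 of E. coli + ACs (0.50) or replicate 1 (0.51) or 3 (0.57) of the group with both. Ranges lay apart for 5 of 9 genes, all higher, beside 39.3% of all genes and 19.9% higher.

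Between the single stimuli, Jak2 and Socs1 were higher with IFN-γ + ACs than with E. coli + ACs, 2 of 9, where 16.6% of all genes passed and 9.84% were higher. The log2 difference was 0.67 ± 0.13 for Jak2 (adjusted p = 7.0e-04 in limma) and 1.27 ± 0.22 for Socs1 (adjusted p = 3.7e-04). Jak2 fell short of 1.5-fold without replicate 3 of IFN-γ + ACs (0.56). Stat2 (0.57) and Stat3 (0.55) differed with adjusted p = 0.0037 and 0.0017 but were short of 1.5-fold. Without replicate 1 of E. coli + ACs both passed (0.71 and 0.60), Stat2 also without replicate 1 of IFN-γ + ACs (0.60) and Stat3 also without replicate 2 of that group (0.63). Ranges lay apart for 4 of 9, all higher, beside 36.8% of all genes and 19.4% higher.

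The effect of E. coli on Jak2 was itself different with and without IFN-γ. It was -0.76 ± 0.13 on the log2 scale without IFN-γ and -0.07 ± 0.13 with it, and the difference of 0.69 ± 0.18 (95% interval 0.31 to 1.07) passed in the interaction test (adjusted p = 0.023 in limma). Jak2 was the 1 of 9 genes past the threshold, where 7.44% of all genes passed and 3.16% had a positive difference. The adjusted p was 0.050 when every gene with a value above 0 was tested, and it ran from 0.051 to 0.073 when replicate 2 or 3 of ACs, replicate 2 or 3 of E. coli + ACs, replicate 2 of IFN-γ + ACs or replicate 1 of IFN-γ + E. coli + ACs was left out. Over all 23 alternatives and leave-outs the value stayed between 0.61 and 0.82. For the other 8 genes the interaction ranged from -0.24 (Socs1) to 0.62 (Stat5a) and did not pass, with 95% intervals of -0.24 to 0.44 for Stat3, -0.13 to 0.65 for Stat2 and -0.90 to 0.43 for Socs1. Without replicate 2 of IFN-γ + E. coli + ACs, the highest of the Socs1 values, Socs1 had -0.63 (adjusted p = 0.041) and passed.

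**Figure D4:**
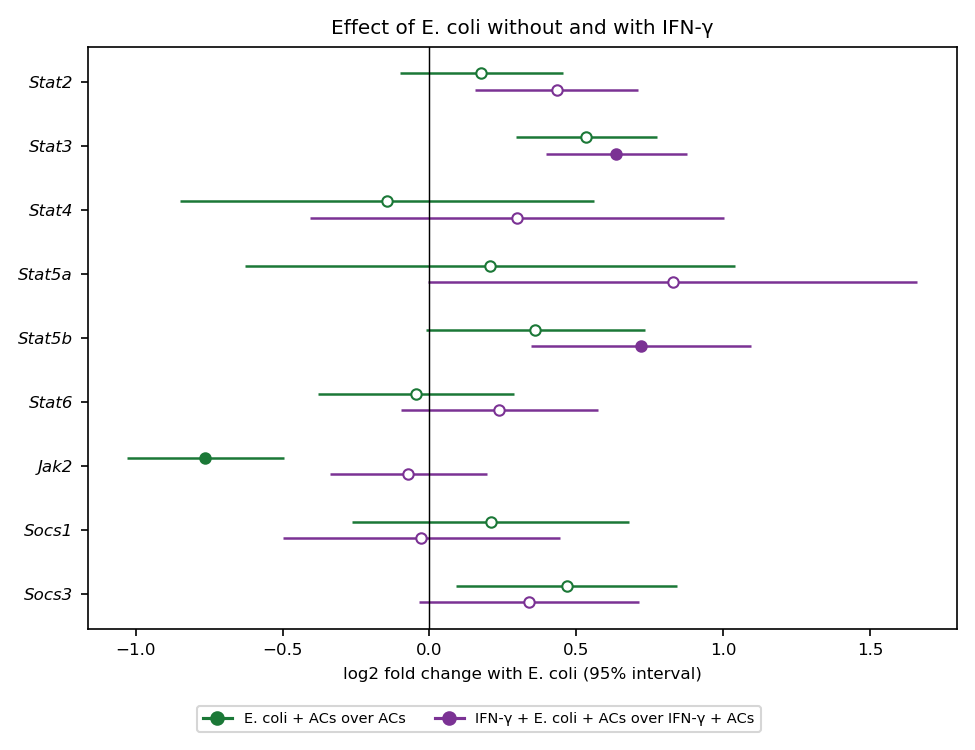
Log2 fold change with E. coli, without IFN-γ (E. coli + ACs over ACs) and with it (IFN-γ + E. coli + ACs over IFN-γ + ACs), with 95% intervals from limma and filled points past the threshold. Jak2 sits at -0.76 without IFN-γ and at -0.07 with it, and Stat3 at 0.53 and 0.64.

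The effect of IL-4 over its own ACs was compared with that of IFN-γ over its own ACs in 1 fit of all 18 libraries. The difference of log2 fold changes, IL-4 minus IFN-γ, passed for 3 of 9 genes, where 14.3% of 10414 genes passed and 8.09% were lower. It was -0.90 ± 0.23 for Stat2 (adjusted p = 0.010 in limma), -1.34 ± 0.17 for Stat3 (adjusted p = 1.1e-05) and -1.15 ± 0.32 for Socs1 (adjusted p = 0.017). The Socs1 call was lost when every gene with a value above 0 was tested and when both shallow libraries were left out, each with adjusted p = 0.055. Stat6 had -0.59 ± 0.22 (adjusted p = 0.079), and it passed with array weights (-0.65), in DESeq2 (-0.61) and without replicate 3 of IFN-γ + E. coli + ACs (adjusted p = 0.013). Jak2 had -0.07 ± 0.18 with a 95% interval of -0.44 to 0.30.

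Among 67 other genes of the pathway, grouped by role, 57 were tested in the Type 1 libraries and 56 in the IL-4 libraries. Of these, 13 were higher and 4 lower in the E. coli cultures, 10 higher and 5 lower in the IFN-γ cultures, 21 higher and 3 lower when both stimuli were given, and 3 higher and 0 lower in the IL-4 cultures. Over all genes tested, 10.3%, 21.4%, 31.9% and 1.09% passed in the same comparisons. The other Janus kinases Jak1, Jak3 and Tyk2, which pair with JAK2 on many receptors or serve other receptors, did not pass with any of the 4 stimuli. Jak1 stayed within log2 fold changes of -0.21 and 0.05, with standard errors of at most 0.12. Jak3 was lower with IL-4 + ACs (28.8 ± 7.59 against 63.8 ± 1.30, SD, n = 3), but the log2 fold change of -1.15 ± 0.30 had an adjusted p of 0.17 in limma.

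Among the 6 other SOCS family genes, Socs2 and Cish, both feedback inhibitors induced by STAT5, passed with IL-4 + ACs. Cish averaged 681 ± 31.5 (SD, n = 3) with IL-4 + ACs and 334.0 ± 29.4 with ACs (log2 1.03 ± 0.14, adjusted p = 0.0063 in limma), and Socs2 averaged 1233 ± 170 and 601 ± 114 (log2 1.04 ± 0.17, adjusted p = 0.020). Socs2 also rose with E. coli + ACs, from 1473 ± 183 to 2662 ± 325 (log2 0.85 ± 0.12, adjusted p = 8.1e-05), and had -0.15 ± 0.12 with IFN-γ + E. coli + ACs. Cish, Socs4 and Socs7 passed with IFN-γ + E. coli + ACs, at log2 0.69, 0.68 and 0.87. With IFN-γ + ACs 0 of the 6 passed in limma, and Cish had -0.58 ± 0.13 (adjusted p = 0.0030), just short of 1.5-fold.

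**Figure D5:**
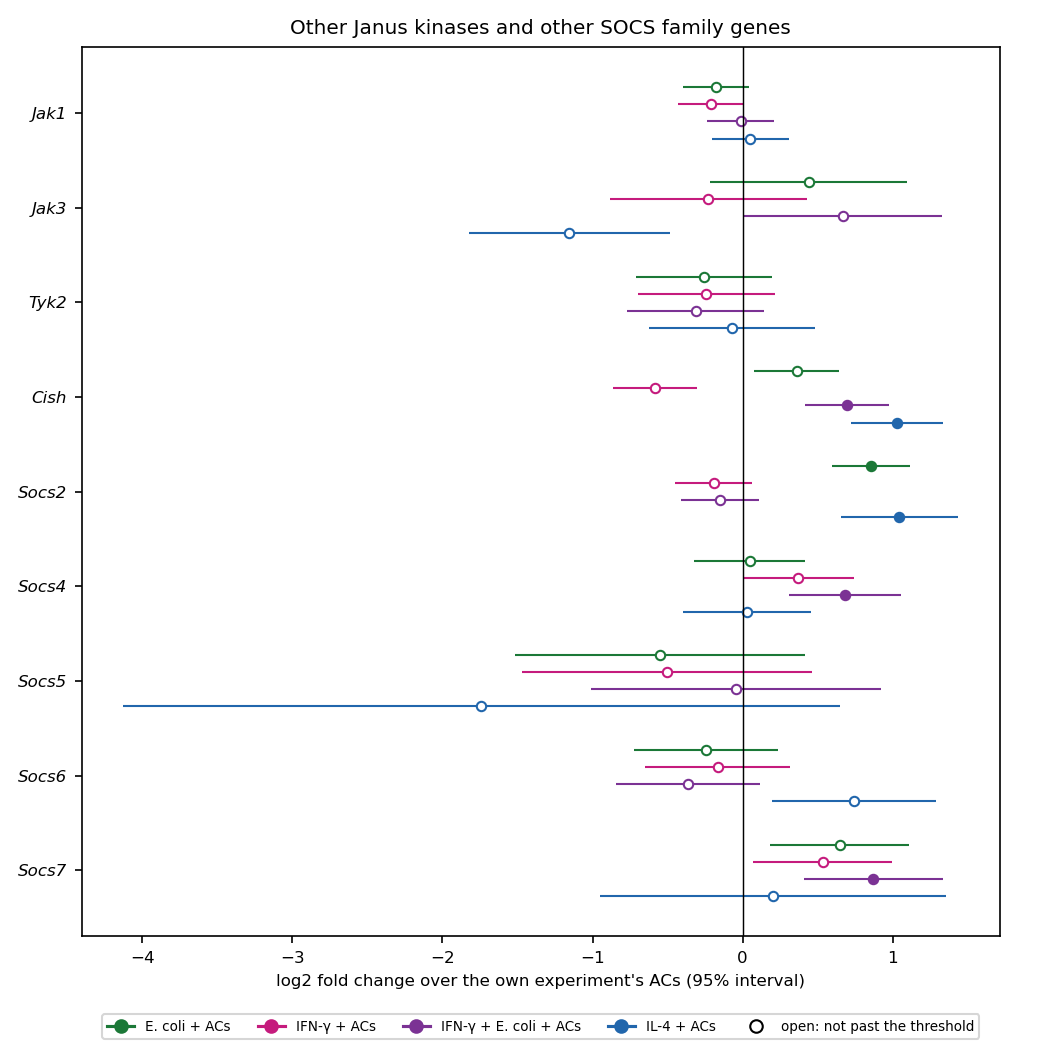
Log2 fold change of the other Janus kinases and the other SOCS family genes over the ACs libraries of the same experiment, with 95% intervals from limma and filled points past the threshold. Cish (1.03) and Socs2 (1.04) are filled with IL-4 + ACs, and no point of Jak1, Jak3 or Tyk2 is filled.

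Of the 10 phosphatases, PIAS proteins and other brakes, Ptpn11 and Usp18 were higher in the E. coli cultures. In the IFN-γ cultures Ptpn2, a phosphatase that acts on Janus kinases and STATs, was higher (log2 0.92 ± 0.16) and Ptpn1 lower (-0.61 ± 0.10), and with both stimuli Ptpn2 (1.45 ± 0.16), Ptpn11 and Usp18 were higher. Of the 8 partners and targets of STATs, Irf1, a direct target of IFN-γ signalling, averaged 783 ± 44.2 with ACs, 4414 ± 242 with IFN-γ + ACs and 5578 ± 835 with both stimuli (SD, n = 3). The log2 fold changes were 2.49 ± 0.12 and 2.82 ± 0.12 (adjusted p = 6.8e-12 and 9.3e-13 in limma). Bcl3, an atypical IκB protein, passed with E. coli (2.06 ± 0.18), IFN-γ (1.21 ± 0.18) and both (2.82 ± 0.18). Pim2, a survival kinase, passed with E. coli (2.80 ± 0.24) and both (1.76 ± 0.24). Irf9, the DNA-binding partner of STAT2, did not pass with any stimulus, with log2 fold changes from -0.20 to 0.11.

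Among the receptor chains, Ifngr1, the ligand-binding chain of the IFN-γ receptor, was lower with IFN-γ + ACs (log2 -0.60 ± 0.16, adjusted p = 0.0082 in limma), and Ifnar2 was higher with IFN-γ + ACs (0.97 ± 0.18) and with both (1.21 ± 0.18). Il13ra1, a chain of the receptor shared by IL-4 and IL-13, was higher with IFN-γ + ACs (95.5 ± 11.7 against 33.1 ± 3.81, SD, n = 3) and with both (log2 2.49 ± 0.23), as was Il2rg, the common gamma chain (1.12 ± 0.14 and 0.88 ± 0.14). Il5ra, the specific chain of the IL-5 receptor, was lower with E. coli + ACs (-0.64 ± 0.16) and IFN-γ + ACs (-0.71 ± 0.16). Csf2rb, the beta chain shared by the IL-3, IL-5 and GM-CSF receptors, was higher with E. coli + ACs (1.05 ± 0.11), as was Csf2rb2 (0.91 ± 0.10). These beta chains were also higher with both stimuli, and neither passed with IFN-γ + ACs. Il6st, which encodes gp130, Lifr and Il6ra were all lower with E. coli + ACs (-1.32 ± 0.26, -0.79 ± 0.16 and -0.89 ± 0.28) and with both stimuli (-1.58 ± 0.26, -1.41 ± 0.16 and -1.98 ± 0.28). Of the 3, Lifr was also lower with IFN-γ + ACs (-1.27 ± 0.16). Il4ra did not pass with any of the 4 stimuli, with log2 fold changes from -0.14 to 0.22.

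Of the 14 ligands, 7 were tested in the Type 1 experiment. Csf3, which encodes G-CSF, averaged 6.45 ± 2.89 with ACs and 89.2 ± 24.9 with E. coli + ACs (SD, n = 3, log2 3.62 ± 0.42, adjusted p = 7.2e-06 in limma), and it was also higher with both stimuli (2.78 ± 0.42). Il10, which signals through STAT3, averaged 31.9 ± 14.0 with ACs, 275 ± 66.9 with E. coli + ACs (log2 3.12 ± 0.28) and 86.8 ± 23.2 with IFN-γ + ACs (log2 1.46 ± 0.28), and it was higher with both stimuli too (1.34 ± 0.28). Il27 rose with E. coli + ACs (1.44 ± 0.32), IFN-γ + ACs (1.11 ± 0.32) and both stimuli (2.54 ± 0.32). Il6 rose with E. coli + ACs (0.98 ± 0.27) and with both stimuli (1.75 ± 0.27). Il5 was higher with E. coli + ACs (0.69 ± 0.13), lower with IFN-γ + ACs (-0.84 ± 0.13) and did not pass with both stimuli. In the IL-4 experiment Il6 averaged 40.6 ± 20.6 with ACs and 273 ± 107 with IL-4 + ACs (log2 2.76 ± 0.36, adjusted p = 0.0057). There Il10 averaged 46.4 ± 7.78 with ACs (38.15 to 53.61) and 3.70 ± 3.31 with IL-4 + ACs (0 to 6.37). It was not among the genes that passed, and in replicate 3 of IL-4 + ACs 3 reads stood for 15.4.

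Profiles over the 18 libraries, each expressed on the log2 scale relative to the mean ACs library of its own experiment, were compared among 6905 genes with a mean of at least 50. The points share libraries and depth, so the Pearson r is a description. The genes most like Stat3 were Abr (r = 0.991), Saraf (0.975) and Ubap1 (0.975), and those most like Stat2 were Parp12 (0.958), Casp8 (0.952) and Slc25a12 (0.952). Socs1 was most like Tapbpl (0.927), Irf1 (0.925) and H2-T23 (0.924). Stat5b was most like Cat (0.948), Ap3s1 (0.948) and Crlf3 (0.947), and Socs3 like Rheb (0.827), Emc7 (0.797) and Cybc1 (0.796). Jak2 was most like Cpt1a (0.893), Fam3b (0.866) and Rsrp1 (0.857). Among the members, Stat2 and Stat3 had r = 0.943, Stat3 and Stat5b 0.831 and Stat2 and Socs1 0.811, while Jak2 lay between -0.386 (Socs3) and -0.002 (Stat2) with the others.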

How the data were processed

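RNA sequencing (CEL-Seq2, which reads the 3′ ends of transcripts from 2 ng of RNA) was examined in 18 libraries of mouse eosinophils. For 54446 genes the authors deposited a normalized signal, that is, reads on the gene divided by the DESeq2 size factor of the library. The submitters' notes list FastQC 0.11.5, cutadapt 1.10, TopHat2 2.1.0, Bowtie2 2.2.6, HTSeq 0.6.1 and DESeq2 1.26.0 on GRCm38. The paper's methods also describe a STAR alignment, and which pipeline made this table is not stated. Dividing each library by the value of a single read gave whole reads for 100% of the values, within 0.0051 of the deposited value. Of the identifiers, 54409 matched a symbol.

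Groups came from the sample labels. limma 3.58.1 in R 4.3.3 (lmFit, eBayes with a trend) was fitted to log2 of the normalized count plus 1, over all genes with a mean of at least 10, on 12 Type 1 libraries, 6 IL-4 libraries, or all 18 for the difference between IL-4 and IFN-γ. Fold changes are on that scale, which understates the change of low genes. Groups fitted together share the spread estimate of each gene, so a standard error also reflects groups outside the comparison. Genes passed with at least 1.5-fold and an adjusted p (Benjamini-Hochberg) under 0.05, the study's threshold, and p-values are two-sided. The fits were tested on simulated data. No main fit paired libraries by replicate number, so the printed standard errors and p-values are unpaired. Deviations from the group means correlated by 0.169 to 0.245 in same-numbered pairs of IFN-γ + ACs and IFN-γ + E. coli + ACs. The other pairs there correlated by -0.162 to 0.0197. A replicate block in the libraries of these groups was run as an alternative. Tables were handled in Python 3.11.15 (scipy 1.17.1, pandas 2.3.3, numpy 2.4.6).

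Alternatives were a pseudocount of 5, testing every gene above 0 or those with a mean of 50 or more, a replicate block, a common upper quartile, TMM factors, DESeq2 1.42.0 or edgeR 4.0.16 on recovered reads, array weights, no fold threshold, 1 fit of 18 libraries and each library left out. The genes followed and the lists were chosen with earlier results of these data known. The genes named are the 9, the 6 pathway genes with the largest change past the threshold per stimulus whose higher group averaged 50 or more, and the 3 genes most alike to each of 6 members. Other pathway genes, given by role, were named after their values were seen. The authors' own comparisons and some genes are not reported here.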

Additional observations from a re-analysis of the deposited data

Results flagged for a closer look

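The effect of E. coli on Jak2 differed between eosinophils with and without IFN-γ by 0.69 on the log2 scale (SE 0.18, 95% interval 0.31 to 1.07, limma adjusted p = 0.023). The interaction term of the 12 Type 1 libraries tested this difference, and of the 9 genes Jak2 was the 1 that passed. The call was lost when every gene with a value above 0 was tested (adjusted p = 0.050) and in 6 of the 12 leave-outs (adjusted p = 0.051 to 0.073). The effect was -0.76 without IFN-γ and -0.07 with it.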

How the results depend on the processing

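Over 1846 alternative values of single genes, 1786 kept their direction and side of the threshold, 21 lost the threshold, 15 gained it and 24 changed sign. With each library left out in turn, the count of genes past the threshold ran from 1 to 2 with E. coli + ACs, 3 to 3 with IFN-γ + ACs, 5 to 6 with IFN-γ + E. coli + ACs and 0 to 0 with IL-4 + ACs. It ran from 1 to 2 for both stimuli against IFN-γ + ACs, 3 to 5 against E. coli + ACs, 1 to 4 between the single stimuli, 0 to 2 in the interaction and 3 to 4 for IL-4 minus IFN-γ. Without a fold limit 2 genes passed with E. coli + ACs and 4 between the single stimuli. At a common upper quartile, 3 passed for both stimuli against E. coli + ACs, and in the interaction 0 passed when every gene above 0 was tested. The fold limit and the number of genes tested differ there by construction, and the cause of the other changes was not tested.

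Signs changed for values that lay between -0.24 and 0.21 and had not passed. Socs1 in both stimuli against IFN-γ + ACs had 0.13 in edgeR and 0.11 in DESeq2. For IL-4 minus IFN-γ, Jak2 had 0.015 at the common upper quartile, 0.022 with array weights and 0.0014 without both shallow libraries, and Socs3 had 0.021 without them. With single libraries left out, the values ran from -0.30 to 0.12 for Stat4, -0.090 to 0.46 for Stat5a and -0.082 to 0.0041 for Stat6 with E. coli + ACs, -0.31 to 0.045 for Stat2 with IL-4 + ACs, -0.16 to 0.058 for Jak2 and -0.42 to 0.34 for Socs1 in both stimuli against IFN-γ + ACs, -0.038 to 0.51 for Stat5a in both against E. coli + ACs, -0.22 to 9.0e-04 for Stat5b and -0.21 to 0.12 for Socs3 between the single stimuli, -0.63 to 0.13 for Socs1 and -0.26 to 0.068 for Socs3 in the interaction, and -0.16 to 0.035 for Jak2 and -0.34 to 0.050 for Socs3 in IL-4 minus IFN-γ.

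Over all genes, IL-4 + ACs called 79 higher and 37 lower, but 125 and 83 with every gene above 0, 389 and 356 with array weights, 127 and 85 in edgeR, 128 and 86 in DESeq2, 116 and 105 in 1 fit of 18 libraries and 345 and 311 without both shallow libraries, an alternative chosen after seeing the data. Leaving out replicate 1 or 2 of IL-4 + ACs gave 31 and 16 or 39 and 18, and leaving out replicate 1 or 2 of its ACs gave 42 and 20 or 45 and 16. The interaction called 321 and 435, but 214 and 281 in 1 fit of 18 libraries, 161 and 239 without replicate 1 of E. coli + ACs, 178 and 261 without replicate 3 of ACs and 214 and 272 without replicate 2 of IFN-γ + ACs, and IL-4 minus IFN-γ called 643 and 843, but 1142 and 1281 with array weights. The common upper quartile moved the median log2 value of all genes with both stimuli over ACs from -0.05 to -0.18 and the calls from 1494 higher and 1746 lower to 1155 and 2200, and for both stimuli against E. coli + ACs from 995 and 973 to 769 and 1352.

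Same-numbered libraries of IFN-γ + ACs and IFN-γ + E. coli + ACs deviated together. With a replicate block in these 6 libraries, chosen after seeing the data, the same count of 2 of the 9 genes passed, and 555 genes were higher and 706 lower, against 606 and 875. In the other pairs of groups the correlations ran from -0.125 to 0.115, and the main fits took no numbers as pairs. With the replicate number as a block, 1, 3, 5 and 0 genes passed with E. coli, IFN-γ, both and IL-4, 2, 5 and 2 in the other contrasts of groups, 1 in the interaction and 3 for IL-4 minus IFN-γ, as without it, and IL-4 + ACs called 45 and 29 of all genes. Depth limits Stat4 and Stat5a in the shallow libraries, where 3 reads stand for 15.4 and 16.1.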
